A study of Mus musculus with 8 samples.

Results

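The genes described here are 42 S-phase and DNA replication genes, taken by symbol from the 27998 genes counted in the libraries. All 42 symbols were found, each with 1 gene identifier. The cells were bone marrow progenitors from 16 mice, Wildtype by genotype and 12 to 14 weeks old. Treated mice had been given a subcutaneous dose of 50000 IU IFNα per 20 g of body weight, and their marrow was taken after 3, 24 or 72 h, while control mice received 100 µl of PBS. Each of these 4 groups held 4 mice, and the labels give no other difference between the groups. The cells sequenced were sorted LK cells (lineage-negative, cKit+) to which sorted LK CD150+ CD48- CD34- cells, a gate rich in hematopoietic stem cells (HSCs), had been added. The addition raises the share of HSCs above that of native LK cells, so shares of cells below describe the loaded mixture and not marrow. The 4 mice of a group were labelled with hashtag antibodies and then read together in 1 droplet library, so that a time point and its library cannot be told apart.

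DNA replication starts when the helicase made of Mcm2 to Mcm7 is loaded on origins in G1 and is switched on at the start of S phase by Cdc45, the GINS complex and Mcm10. Primase and the DNA polymerases then copy the template with the sliding clamp Pcna, ribonucleotide reductase and thymidylate synthase supply the nucleotides, and histone chaperones and maintenance factors rebuild chromatin behind the fork. Most of these genes are transcribed at the G1/S border under E2F factors and cyclin E-Cdk2. In marrow, most HSCs are quiescent and committed progenitors divide often, and type I interferon is known to bring HSCs out of quiescence for a short time.

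After filtering, 10046 cells were kept. Control mice gave 2474 of them and the 3, 24 and 72 h mice 1661, 3462 and 2449, with a median of 18964.5, 12017, 18953.5 and 14763 unique molecular identifiers (UMIs) per cell. Counts were summed for each mouse over all its kept cells (the whole compartment) or over the cells of a class, and are given as CPM, the gene's UMIs scaled to a common total of UMIs per mouse, with scaling factors between mice. The sums held 1102706 to 26446327 UMIs per mouse. Control mouse 4 had 58 kept cells. Its summed level of 10 interferon-stimulated genes was 209 CPM against 101 to 115 CPM in the other control mice, and in HSC-like cells it was 1118 CPM against 263 to 360 CPM. Pairs of libraries shared no more than 1 cell barcode. Cell classes were rebuilt from clusters of the control cells, with cell cycle genes left out of the genes that set the clusters. In the HSC-like class all 17 listed HSC markers had at least 1 UMI in the summed counts, which is a low bar. In the control cells of the clusters that form it, 14 and 17 of them were detected in more than 10% of cells. In the classes below, LMPP stands for lymphoid-primed multipotent progenitor and MK for megakaryocyte. Each is named from markers, and the labels give no class to single cells.

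The promoters of 4 members on which the results below turn are shown first, as the 250 bases before the gene's start in RefSeq (GRCm38.p6), read 5′ to 3′ on the gene's strand. Capitals mark the E2F letters TTTCCCGC, TTTCGCGC, TTTGCCGC or TTTGGCGC and the NF-Y letters CCAAT, each on either strand. Hells and Cdca7 were called higher at all 3 times in the whole compartment, with the largest change at 3 h. Mcm6 rose with them in HSC-like cells at 3 h, and Pcna was lower at 72 h in each of the 5 cell classes.
Hells, chr19:38930740-38930989, plus strand: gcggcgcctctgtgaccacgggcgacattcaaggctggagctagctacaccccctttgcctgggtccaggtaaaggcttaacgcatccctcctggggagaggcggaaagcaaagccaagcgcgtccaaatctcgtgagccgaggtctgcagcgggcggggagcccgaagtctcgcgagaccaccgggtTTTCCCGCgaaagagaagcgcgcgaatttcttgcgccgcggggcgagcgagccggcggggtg
Cdca7, chr2:72475969-72476218, plus strand: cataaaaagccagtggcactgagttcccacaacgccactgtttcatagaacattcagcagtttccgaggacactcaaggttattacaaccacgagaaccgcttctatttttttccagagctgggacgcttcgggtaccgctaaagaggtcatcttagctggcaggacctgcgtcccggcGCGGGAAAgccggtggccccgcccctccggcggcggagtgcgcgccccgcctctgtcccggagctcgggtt
Mcm6, chr1:128359706-128359955, minus strand: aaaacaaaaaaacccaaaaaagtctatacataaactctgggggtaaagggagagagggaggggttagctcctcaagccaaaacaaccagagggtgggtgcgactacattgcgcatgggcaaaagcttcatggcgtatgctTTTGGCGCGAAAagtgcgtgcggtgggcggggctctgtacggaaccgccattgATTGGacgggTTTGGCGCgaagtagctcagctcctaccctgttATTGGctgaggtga
Pcna, chr2:132253181-132253430, minus strand: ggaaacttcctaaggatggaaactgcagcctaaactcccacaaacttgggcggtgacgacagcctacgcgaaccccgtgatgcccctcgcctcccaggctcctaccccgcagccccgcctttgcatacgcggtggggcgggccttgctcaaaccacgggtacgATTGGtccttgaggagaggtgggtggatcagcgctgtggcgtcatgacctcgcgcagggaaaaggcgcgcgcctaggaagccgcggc
The Hells window held 1 E2F match, 62 to 55 bases before the start, and the Cdca7 window held 1, at 71 to 64 bases. Mcm6 held 3, of which those at 110 to 103 and at 106 to 99 bases overlap on opposite strands, and 2 CCAAT matches. The Pcna window held no E2F match and 1 CCAAT match, at 87 to 83 bases. In the GENCODE vM21 annotation of the same assembly, Hells spans chr19:38930915-38971051, Cdca7 chr2:72476159-72486893, Mcm6 chr1:128331590-128359664 and Pcna chr2:132249162-132253314. The start in GENCODE lies inside the windows shown for Hells, Cdca7 and Pcna, so that the E2F match of Hells and the CCAAT match of Pcna fall inside the GENCODE gene and not before it.

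RefSeq promoter windows of 300 bases, 250 before and 50 after the start, were found for 33 of the 42 members, with 36 windows in all. Of these windows 14 (38.9%) held 1 of the E2F letter strings, against 744 of 32851 windows of all genes (2.26%). CCAAT stood in 26 of the 36 windows (72.2%), against 37.4% of all windows. For the 55 G2/M genes used for comparison below, which had 53 windows, E2F letters stood in 3 (5.66%) and CCAAT in 40 (75.5%). The letters GAAANNGAAA, which resemble the interferon response element, stood in 2 member windows (5.56%), those of E2f8 and Brip1, against 3.44% of all windows and 4 of 6 windows of interferon-stimulated genes. A match is a run of letters and not a measured binding site. The 4 promoters shown above were picked for the results of their genes and do not stand for all members. Among other members called higher in HSC-like cells at 3 h, Mcm3 and Mcm5 held 2 E2F matches each. Nasp, Rad51ap1 and Rrm1, also called higher there, held 0. Of the Mcm7 windows, 1 held 0 and the other 2. Whether the letters go with the direction of change was not tested.

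In control mice the replication genes were lowest as a group in HSC-like cells. Members took 0.213% to 0.257% of the UMIs of HSC-like cells, 0.329% to 0.380% in MK progenitor-like cells, 0.399% to 0.416% in LMPP-like cells, 0.382% to 0.435% in myeloid progenitor-like cells and 0.423% to 0.540% in erythroid progenitor-like cells. The HSC-like range lay below that of every other class, while the myeloid range overlapped both the LMPP-like and the erythroid range. The CPM values in the rest of this paragraph were taken without the scaling factors between mice. They therefore differ somewhat from the scaled values per mouse given below. Rrm2, the regulated subunit of ribonucleotide reductase, had 20.5 ± 5.02 CPM (mean ± SD, n = 4 mice) in HSC-like cells, 145 ± 23.1 CPM (n = 4) in myeloid progenitor-like cells and 208 ± 71.2 CPM (n = 3) in erythroid progenitor-like cells. Hells, a chromatin remodeler that helps to keep DNA methylation, had 45.7 ± 8.23 CPM in HSC-like and 101 ± 7.17 CPM in myeloid progenitor-like cells (n = 4 each). Ccne1, one of the genes for cyclin E, differed in a way of its own, with 122 ± 34.6 CPM in erythroid progenitor-like cells (n = 3), 14.7 ± 4.86 CPM in myeloid progenitor-like cells and 2.06 ± 1.67 CPM in HSC-like cells (n = 4 each).

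The first question was how the replication genes changed over the 3 days after the interferon dose in the compartment as a whole. All 42 members passed the filter on low counts among 12042 genes tested. At 3 h, 11 members were higher and 6 were lower than in control mice (edgeR quasi-likelihood test, Benjamini-Hochberg adjusted p under 0.05), where 19.7% of all genes were called higher and 19.2% lower. At 24 h, 3 were higher and 9 lower (14.5% and 13.8% of all genes), and at 72 h, 3 were higher and 17 lower (18.9% and 18.5%). No member changed by more than 1 on the log2 scale at any of the 3 times. The median log2 fold change of the members was 0.02, -0.04 and -0.08 at 3, 24 and 72 h, beside -0.03, 0.00 and 0.02 over all genes. Members took 0.376% to 0.411% of UMIs in control mice, 0.349% to 0.390% at 3 h, 0.365% to 0.397% at 24 h and 0.348% to 0.377% at 72 h. The split at 3 h depends on the scaling. With library size alone, under which the median of all genes moved to -0.18, 6 members were called higher and 20 lower. The 3 comparisons share the 4 control mice. Cells thinned to 3000 UMIs each, which leaves far fewer counts, gave 8 higher and 3 lower at 3 h, 1 and 1 at 24 h, and 0 and 7 at 72 h.

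The whole compartment also changed in makeup. HSC-like cells were 19.4% to 24.1% of a mouse's kept cells in control, 31.8% to 42.7% at 3 h, 25.9% to 30.2% at 24 h and 31.5% to 35.6% at 72 h. Myeloid progenitor-like cells were 31.0% to 35.4% in control, 16.9% to 25.8% at 3 h, 22.5% to 30.0% at 24 h and 17.9% to 24.5% at 72 h. Summed myeloid markers (25 genes, all detected in each group) went from 15681 to 21500 CPM in control mice to 8653 to 12533 CPM at 3 h. In such marker sums alone, fewer cells of a type and less RNA per cell cannot be told apart. The part of the shift in makeup in the changes of the whole compartment was not tested.

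**Figure D1:**
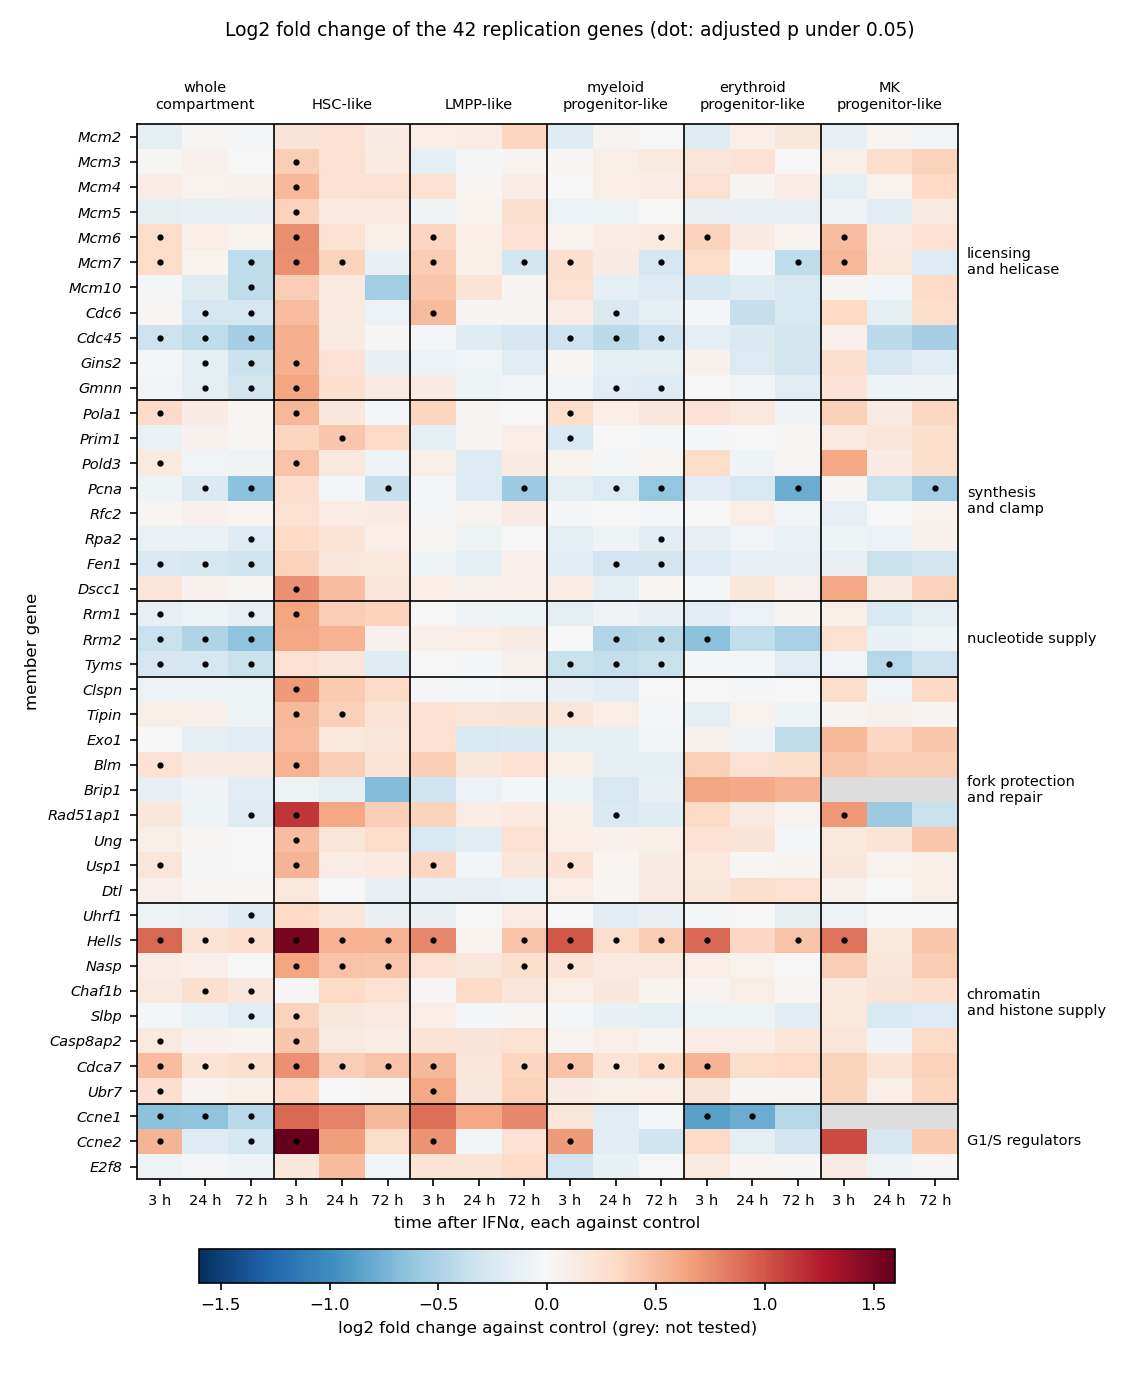
Log2 fold change against control (color scale) of each of the 42 members (rows, grouped by role) in the whole compartment and in 5 classes at 3, 24 and 72 h (columns); black dots mark an adjusted p under 0.05 and grey cells genes that were not tested. In the HSC-like class 23 members were called higher at 3 h and 6 at 24 h, while in the whole compartment 17 were called lower at 72 h.

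Among the chromatin and histone supply genes, 4 of 8 were higher at 3 h and none lower, beside 19.7% and 19.2% of all genes. At 24 h Chaf1b, a subunit of chromatin assembly factor 1, was called higher beside Hells and Cdca7, and none was lower (14.5% and 13.8% of all genes). At 72 h 3 of the 8 were higher and 2 were lower (18.9% and 18.5% of all genes). In the whole compartment Hells stood at 83.5, 71.7, 76.8 and 74.8 CPM in control mice 1 to 4, at 153, 131, 147 and 154 CPM at 3 h, at 97.3, 84.7, 87.99 and 88.4 CPM at 24 h and at 85.5, 97.3, 93.4 and 96.5 CPM at 72 h. All treated mice lay above all control mice, and the 3 h mice lay furthest from them. Against control mice, the log2 fold change of Hells was 0.92 (SE 0.06, adjusted p = 3.6e-11) at 3 h, 0.21 (SE 0.06, adjusted p = 0.01) at 24 h and 0.27 (SE 0.06, adjusted p = 0.0015) at 72 h. Without control mouse 2 the 24 h call was lost (adjusted p = 0.064), and with thinned cells the 72 h call was lost (0.18, adjusted p = 0.23). Cdca7, the zinc finger partner that recruits Hells to chromatin, followed the same order of groups. It stood at 141, 131, 130.1 and 128 CPM in control mice, at 208, 174, 178 and 191 CPM at 3 h, at 164, 153, 156 and 151 CPM at 24 h and at 151, 168, 161 and 158 CPM at 72 h. Here too no treated mouse overlapped a control mouse. For Cdca7 the log2 fold change was 0.49 (SE 0.05, adjusted p = 1.1e-07) at 3 h, 0.22 (SE 0.05, adjusted p = 0.0023) at 24 h and 0.26 (SE 0.05, adjusted p = 4.9e-04) at 72 h, and with thinned cells the 24 h and 72 h calls were lost (adjusted p = 0.16 and 0.1). Ubr7, a ubiquitin ligase of histone H2B, and Casp8ap2, needed for histone gene expression, were also higher at 3 h, by 0.27 and 0.15 on the log2 scale. Slbp, which binds the stem-loop of histone mRNAs, was called only at 72 h, when its log2 fold change was -0.17 (SE 0.05, adjusted p = 0.0051), and not with thinned cells (adjusted p = 0.19). It measured 198, 179, 203 and 199 CPM in control mice and 168, 170.2, 180.3 and 171 CPM at 72 h, ranges that overlapped. Nasp, a chaperone of histone H3-H4 and of linker histones, was called at none of the 3 times in the whole compartment.

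Of the 11 licensing and helicase genes, 2 were higher and 1 was lower at 3 h, shares no larger than the 19.7% and 19.2% of all genes. At 24 h 4 were lower, beside 13.8% of all genes, and at 72 h 6 were lower and none higher, beside 18.5% and 18.9%. Mcm6, a subunit of the replicative helicase, stood at 213, 210.4, 216 and 200.1 CPM in control mice, at 269, 238, 253 and 276 CPM at 3 h, at 232, 217, 232 and 228 CPM at 24 h and at 210.3, 236, 205 and 227 CPM at 72 h. Its 3 h and 24 h mice all lay above the control mice, and its 72 h mice overlapped them. The log2 fold change of Mcm6 was 0.29 (SE 0.05, adjusted p = 5.0e-05) at 3 h and 0.10 (SE 0.05, adjusted p = 0.11) at 24 h. Mcm3, another subunit, measured 173 to 191 CPM in control mice and 173 to 201 CPM at 3 h, with a log2 fold change of 0.02 (SE 0.05, adjusted p = 0.84), and under scaling by library size alone it was called lower (-0.13). Mcm7 stood at 178, 172, 171 and 180.1 CPM in control mice, at 211, 203, 211 and 231 CPM at 3 h and at 120.5, 135, 138 and 134 CPM at 72 h. It was above all control mice at 3 h and below all of them at 72 h, with log2 fold changes of 0.29 (SE 0.05, adjusted p = 3.8e-05) and -0.41 (SE 0.05, adjusted p = 9.6e-07). Mcm7 was chosen for values per mouse after its values were seen. The microRNA genes Mir25, Mir93 and Mir106b lie inside it on the same strand. Cdc45, which joins the helicase to make it active, stood at 32.5, 28.3, 33.4 and 30.5 CPM in control mice, at 21.2, 25.7, 26.6 and 25.4 CPM at 3 h, at 22.2, 21.8, 25.5 and 24.97 CPM at 24 h and at 22.2, 20.3, 21.5 and 22.9 CPM at 72 h. All 12 treated mice were below all control mice. Its log2 fold change was -0.33 (SE 0.08, adjusted p = 0.0031) at 3 h, -0.41 (SE 0.07, adjusted p = 1.8e-04) at 24 h and -0.53 (SE 0.08, adjusted p = 1.5e-05) at 72 h, and with thinned cells the calls at 3 h (adjusted p = 0.15) and 24 h (adjusted p = 0.06) were lost.

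**Figure D2:**
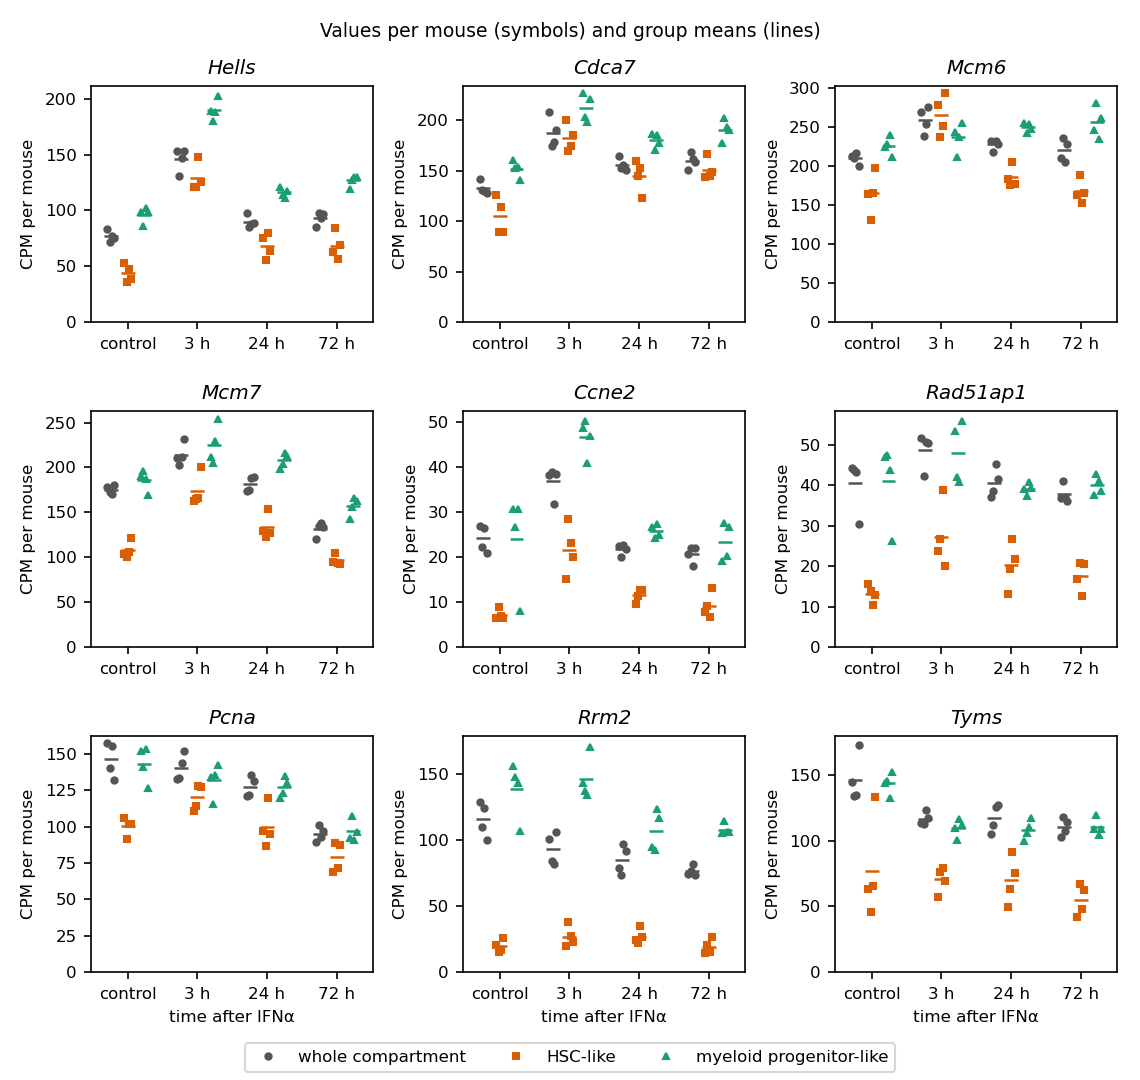
CPM (y axis) of 9 members in each mouse (symbols) of the 4 groups (x axis), with the group mean as a line, in the whole compartment (grey circles), HSC-like cells (orange squares) and myeloid progenitor-like cells (green triangles). Hells at 3 h sits between 131 and 154 CPM in the whole compartment, above the control range of 71.7 to 83.5 CPM, and Pcna at 72 h sits between 89.6 and 101 CPM, below the control range of 132 to 158 CPM.

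All 3 nucleotide supply genes were called lower at 3 h and at 72 h, and 2 of them at 24 h. Of all genes 19.2%, 13.8% and 18.5% were called lower at 3, 24 and 72 h. Rrm2 stood at 129, 109.9, 124 and 100.1 CPM in control mice, at 101, 83.9, 81.8 and 106 CPM at 3 h, at 78.8, 73.2, 97.3 and 91.6 CPM at 24 h and at 73.9, 76.8, 81.6 and 73.3 CPM at 72 h. The 3 h mice overlapped the control mice, and the 24 h and 72 h mice lay below all of them. Its log2 fold change was -0.36 (SE 0.09, adjusted p = 0.0035), -0.48 (SE 0.09, adjusted p = 2.0e-04) and -0.64 (SE 0.09, adjusted p = 7.6e-06) at 3, 24 and 72 h. Tyms, the thymidylate synthase, stood at 145, 134, 135 and 173 CPM in control mice, at 114, 113, 124 and 118 CPM at 3 h, at 105, 112, 126 and 128 CPM at 24 h and at 103, 118, 107 and 114 CPM at 72 h. The highest control value, 173 CPM, was that of control mouse 4, and the treated mice lay below all control mice at each time. Against control mice, the log2 fold change of Tyms was -0.27 (SE 0.07, adjusted p = 0.0036) at 3 h, -0.27 (SE 0.07, adjusted p = 0.004) at 24 h and -0.36 (SE 0.07, adjusted p = 2.5e-04) at 72 h. With thinned cells its 24 h call was lost (adjusted p = 0.084). Rrm1, the large reductase subunit, had the smaller log2 fold changes of -0.13 (SE 0.05, adjusted p = 0.044) at 3 h and -0.14 (SE 0.05, adjusted p = 0.026) at 72 h. Within the 5 cell classes Rrm1 was called lower in none at any time, and higher in 1 at 3 h. Rrm2 was called lower in 1 class at each time, and Tyms in 1, 2 and 1 classes at 3, 24 and 72 h.

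Pcna, the clamp that holds the polymerases on DNA, showed the strongest fall of the synthesis genes. It stood at 158, 141, 155 and 132 CPM in control mice, at 133, 133, 144 and 152 CPM at 3 h, at 121, 122, 135 and 131 CPM at 24 h and at 89.6, 101, 92.6 and 96.9 CPM at 72 h. At 3 h and 24 h its mice overlapped the control mice, and at 72 h all 4 lay far below them. For Pcna the log2 fold change was -0.09 (SE 0.06, adjusted p = 0.26) at 3 h, -0.23 (SE 0.05, adjusted p = 0.0034) at 24 h and -0.65 (SE 0.06, adjusted p = 1.2e-08) at 72 h, and the 24 h call was lost with thinned cells (adjusted p = 0.065). A processed copy of Pcna, Pcna-ps2, had 100 UMIs in all libraries together. Fen1, which trims the flaps of lagging strand fragments, fell at each time, with log2 fold changes of -0.24, -0.29 and -0.32, while Pola1, the catalytic subunit of the priming polymerase, and Pold3, a subunit of polymerase δ, were higher at 3 h alone among the 3 times, by 0.31 and 0.15. Rfc2, a subunit of the loader that puts Pcna on DNA, was called at no time. It measured 189 to 216 CPM in control mice and 202 to 227 CPM at 72 h, and its log2 fold change at 3 h was 0.03 (SE 0.05, adjusted p = 0.69), with a call in the lower direction (-0.12) under scaling by library size alone. Prim1, the catalytic primase subunit, measured 48.7 to 66.8 CPM in control mice and was likewise called at no time.

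Of the 9 fork protection and repair genes, Usp1 and Blm were called higher at 3 h and none was lower, a share of higher genes close to the 19.7% of all genes. Usp1, a deubiquitinase that acts on Pcna and Fancd2, stood at 125, 119, 116 and 118 CPM in control mice and at 141, 129, 137 and 140.1 CPM at 3 h, above all control mice. Its log2 fold change was 0.19 (SE 0.05, adjusted p = 0.0015) at 3 h and -0.03 (SE 0.04, adjusted p = 0.68) at 24 h, and the 3 h call was lost under scaling by library size alone (0.04, adjusted p = 0.44). Blm, a helicase of the RecQ family, had a 3 h log2 fold change of 0.23 (SE 0.08, adjusted p = 0.028). Tipin, a fork protection factor, measured 148 to 165 CPM in control mice and 145 to 187 CPM at 3 h, with no call. Rad51ap1, a DNA repair factor, measured 44.3, 43.8, 43.4 and 30.5 CPM in control mice and 36.8, 40.96, 37.2 and 36.2 CPM at 72 h, where its log2 fold change was -0.19 (SE 0.07, adjusted p = 0.047). This weak call rested on the settings and was lost under DESeq2 (adjusted p = 0.1), with thinned cells (adjusted p = 0.098) and without single mice (without control mouse 1 adjusted p = 0.12). Without control mouse 4, which had the lowest control value, it was -0.22 and called (adjusted p = 0.014).

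The G1/S regulators moved apart from each other at 3 h. Ccne2, the other cyclin E gene, stood at 26.9, 22.1, 26.4 and 20.9 CPM in control mice, at 38.1, 38.8, 31.7 and 38.4 CPM at 3 h, at 22.3, 19.98, 22.7 and 21.8 CPM at 24 h and at 20.7, 21.9, 17.9 and 21.9 CPM at 72 h. Its 3 h mice lay above all control mice and its later mice overlapped them. The log2 fold change of Ccne2 was 0.54 (SE 0.09, adjusted p = 3.5e-05) at 3 h, -0.21 (SE 0.08, adjusted p = 0.058) at 24 h and -0.28 (SE 0.09, adjusted p = 0.014) at 72 h. Without control mouse 4 the 24 h value was called (-0.22, adjusted p = 0.046). The 72 h call was lost with thinned cells (adjusted p = 0.75), without control mouse 1 (0.065) or 3 (0.058) and without 72 h mouse 3 (0.055). Ccne1 stood at 29.3, 18.3, 28.5 and 22.6 CPM in control mice, at 20.3, 12.6, 16.2 and 15.1 CPM at 3 h, at 15.7, 12.9, 20.5 and 16.7 CPM at 24 h and at 17.9, 20.8, 18.9 and 17.4 CPM at 72 h. In each treated group some mice overlapped the lowest control mouse. Against control mice, the log2 fold change of Ccne1 was -0.65 (SE 0.17, adjusted p = 0.0035) at 3 h, -0.64 (SE 0.14, adjusted p = 0.0015) at 24 h and -0.44 (SE 0.14, adjusted p = 0.022) at 72 h. With thinned cells these 3 calls were lost (adjusted p = 0.16, 0.35 and 0.19), and the 72 h call was also lost without control mouse 1 (0.12) or 3 (0.098) and without 72 h mouse 1 (0.059) or 4 (0.053). Erythroid progenitor-like cells, in which Ccne1 was highest, were 6.77% to 9.58% of the kept cells in the control mice and 3.94% to 7.92% at 3 h, and their part in the fall was not tested. E2f8, a repressor of the E2F family, measured 29.6 to 32.2 CPM in control mice and was called at no time.

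Successive time points were also compared with each other in the same fit. The control mice took part in its filter, scaling and spread, but were not a side of these comparisons. At 24 h against 3 h, 2 members were higher and 11 lower (12.3% and 16.3% of all genes), and with library size alone, where the median of all genes was 0.14, this split turned to 10 higher and 3 lower. Hells and Ccne2 had the lowest values, at -0.71 (SE 0.06, adjusted p = 2.0e-09) and -0.75 (SE 0.09, adjusted p = 3.7e-07). At 72 h against 24 h no member was higher and 2 were lower (3.7% and 5.38%). These were Mcm7, with a log2 fold change of -0.46 (SE 0.05, adjusted p = 1.9e-07), and Pcna, with -0.42 (SE 0.05, adjusted p = 1.1e-05). The count was 4 without 24 h mouse 2.

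The second question was what the HSC-like cells did, since their replication genes were lowest before treatment. At 3 h, 23 of the 42 members were higher in HSC-like cells and none was lower, where 13% of the 10279 genes tested were called higher and 7.71% lower. The median log2 fold change of the members was 0.50, beside -0.03 over all genes. By role, 7 of 11 licensing and helicase genes, 3 of 8 synthesis and clamp genes, 1 of 3 nucleotide supply genes, 6 of 9 fork protection and repair genes, 5 of 8 chromatin and histone supply genes and 1 of 3 G1/S regulators were higher. At 24 h, 6 members were higher and none lower (3.6% and 1.5% of all genes), with a median of 0.23. At 72 h, 3 were higher and 1 was lower (3.63% and 1.77%), with a median of 0.15. Members took 0.213% to 0.257% of the UMIs of control HSC-like cells, 0.281% to 0.305% at 3 h, 0.258% to 0.316% at 24 h and 0.228% to 0.282% at 72 h, so that the 3 h and 24 h mice lay above all control mice.

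Several measured facts stand beside the 3 h count. Control mouse 4 gave 14 HSC-like cells, and without it the counts at the 3 times were 24, 6 and 4. Without any other single mouse the 3 h count was 17 to 27, while the 24 h count was 1 without control mouse 2 and 2 without 24 h mouse 3. With library size alone, under which the median of all genes was -0.23, 13 members were higher and none lower at 3 h. With cells thinned to 3000 UMIs 9 were higher at 3 h, with 35 members tested, none was called at 24 h and 1 at 72 h. The class joins 2 clusters, which made up 44.1% to 54.7% and 45.3% to 55.9% of it in control mice and 43.9% to 48.1% and 51.9% to 56.1% at 3 h, and taken alone they gave 21 and 7 members at 3 h. In control cells the mean level of the listed HSC markers, standardized over all clusters, was 1.001 in the first of these clusters and 1.657 in the second. The cluster with the higher HSC marker level was thus the one with 7 members called. Its control cells had a median of 10439.5 UMIs, against 12468.5 in the other cluster. The share of all genes called in these single-cluster fits is not given here. The counts of 21 and 7 therefore do not show that the members changed less in 1 cluster than in the other. The summed HSC markers of the class were 2149 to 2612 CPM in control mice and 2667 to 2927 CPM at 3 h, and the summed myeloid markers were 1809 to 2398 and 2042 to 2266 CPM. The HSC list includes Ly6a, the gene for Sca-1, whose expression in HSCs the paper reports to rise early after IFNα. It also includes Ifitm1, of the interferon-induced transmembrane family. The parts of Ly6a and Ifitm1 in the higher HSC marker sum were not tested. Erythroid markers summed to 848 to 1822 CPM in control and 734 to 852 CPM at 3 h, and LMPP markers to 440 to 976 and 502 to 647 CPM. Markers of T and NK cells reached at most 4.52 CPM in control and 4.30 CPM at 3 h. Whether the rise in the share of HSC-like cells brought other cells into the class was not tested.

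Hells was again among the members with the largest change. In HSC-like cells it stood at 52.7, 35.4, 47.6 and 38.3 CPM in control mice, at 121, 121, 147 and 125 CPM at 3 h, at 74.9, 55.1, 79.99 and 63.1 CPM at 24 h and at 62.4, 84.2, 56.6 and 68.96 CPM at 72 h. No treated mouse overlapped a control mouse at any time. For Hells the log2 fold change was 1.52 (SE 0.14, adjusted p = 1.6e-10) at 3 h, 0.55 (SE 0.14, adjusted p = 0.012) at 24 h and 0.56 (SE 0.14, adjusted p = 0.014) at 72 h. The 24 h call was lost without control mouse 2 (adjusted p = 0.13) or 24 h mouse 3 (0.06), the 72 h call without control mouse 2 (0.12) or 72 h mouse 2 (0.063), and both with thinned cells (0.36 and 0.45). Cdca7 stood at 126, 89.05, 114 and 89.3 CPM in control mice, at 201, 169, 174 and 185 CPM at 3 h, at 159.7, 145, 153 and 123 CPM at 24 h and at 144, 166, 145 and 148 CPM at 72 h. Its 24 h mice overlapped the control mice and the others did not. The log2 fold change of Cdca7 was 0.72 (SE 0.10, adjusted p = 1.0e-06) at 3 h, 0.40 (SE 0.10, adjusted p = 0.0076) at 24 h and 0.46 (SE 0.10, adjusted p = 0.0023) at 72 h, and the 24 h call was lost without control mouse 2 (adjusted p = 0.11). Nasp, which was not called in the whole compartment, stood at 62.7, 61.4, 68.7 and 57.4 CPM in control mice, at 108, 81.1, 104 and 103 CPM at 3 h, at 83.5, 84.95, 101 and 83.99 CPM at 24 h and at 79.4, 106, 78.7 and 89.8 CPM at 72 h. All its treated mice lay above all control mice. Against control mice, the log2 fold change of Nasp was 0.62 (SE 0.11, adjusted p = 8.3e-05) at 3 h, 0.46 (SE 0.10, adjusted p = 0.0052) at 24 h and 0.44 (SE 0.11, adjusted p = 0.0088) at 72 h. Thinned cells kept none of the 24 h and 72 h calls of Hells, Cdca7 and Nasp (adjusted p from 0.084 to 0.49). Slbp was higher at 3 h, with 121, 110.1, 124 and 115 CPM in control mice, 148, 173, 164 and 114 CPM at 3 h and a log2 fold change of 0.36 (SE 0.10, adjusted p = 0.0052), which was lost with library size alone (0.16, adjusted p = 0.21) and with thinned cells (adjusted p = 0.43). Its mouse 4 at 3 h lay inside the control range.

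Ccne2 had the largest 3 h fold change of all members. It stood at 6.53, 8.85, 6.92 and 6.38 CPM in control HSC-like cells, at 15.1, 28.4, 23.1 and 19.9 CPM at 3 h, at 9.53, 11.3, 12.6 and 12.7 CPM at 24 h and at 7.72, 8.98, 6.56 and 13.2 CPM at 72 h. Its 3 h and 24 h mice lay above all control mice. For Ccne2 the log2 fold change was 1.60 (SE 0.24, adjusted p = 5.1e-06) at 3 h and 0.66 (SE 0.24, adjusted p = 0.12) at 24 h. Rad51ap1 stood at 15.7, 13.8, 10.4 and 12.8 CPM in control mice and at 23.7, 26.8, 38.7 and 19.9 CPM at 3 h, above all of them, with a log2 fold change of 1.15 (SE 0.24, adjusted p = 4.6e-04). The sums of control HSC-like cells held 147619 UMIs in mouse 4 and 1719249 to 2211175 UMIs in the other mice. The control levels of Ccne2 and Rad51ap1 therefore rest on few UMIs. Ccne1 was close to the limit of detection in this class, with 1.74, 2.21, 3.89 and 0 CPM in control mice and 7.55, 4.73, 5.22 and 1.99 CPM at 3 h, and its log2 fold change of 0.91 (SE 0.48, adjusted p = 0.2) was not called.

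The helicase subunits rose together at 3 h, since Mcm3 to Mcm7 were called higher and Mcm2 alone of the 6 was not. Mcm6 stood at 164, 131, 166 and 198 CPM in control mice, at 278, 237, 251 and 294 CPM at 3 h, at 184, 176, 205 and 177 CPM at 24 h and at 163, 189, 153 and 166 CPM at 72 h. The 3 h mice lay above all control mice and the later mice overlapped them. The log2 fold change of Mcm6 was 0.75 (SE 0.09, adjusted p = 6.9e-08) at 3 h and 0.24 (SE 0.09, adjusted p = 0.12) at 24 h. Mcm7 stood at 104, 100.1, 105 and 121 CPM in control mice and at 163, 165, 166 and 201 CPM at 3 h, with log2 fold changes of 0.73 (SE 0.09, adjusted p = 1.1e-07) at 3 h and 0.35 (SE 0.09, adjusted p = 0.0085) at 24 h. Mcm3 measured 124, 104, 137 and 89.3 CPM in control mice and 148, 163, 158 and 167 CPM at 3 h, with a log2 fold change of 0.40 (SE 0.09, adjusted p = 0.0018), lost with library size alone (0.19, adjusted p = 0.11). Mcm4, Mcm5, Gins2 and Gmnn, the inhibitor of relicensing, were higher by 0.51, 0.37, 0.56 and 0.63. Mcm2 had a log2 fold change of 0.21 (SE 0.12, adjusted p = 0.24). Of the loading and activation factors, Cdc6, Cdc45 and Mcm10 were not called at 3 h. Cdc45 measured 9.14, 9.40, 11.2 and 25.5 CPM in control mice, the highest value being that of control mouse 4, and 9.71, 13.4, 18.3 and 17.9 CPM at 3 h, with a log2 fold change of 0.57 (SE 0.23, adjusted p = 0.084). Without control mouse 4 the value was 0.63 and was called (adjusted p = 0.046).

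Among the synthesis genes in HSC-like cells, Pola1, Pold3 and Dscc1, part of an alternative clamp loader, were higher at 3 h, by 0.53, 0.46 and 0.73. Pcna stood at 106, 91.8, 102 and 102 CPM in control mice, at 111, 114, 128 and 127 CPM at 3 h, at 97.1, 86.5, 120.0 and 95.2 CPM at 24 h and at 68.5, 88.7, 71.3 and 87.6 CPM at 72 h. Its mice lay above all control mice at 3 h and below all of them at 72 h. The 3 h log2 fold change of 0.27 (SE 0.11, adjusted p = 0.075) was not called, and the 72 h value of -0.36 (SE 0.11, adjusted p = 0.038) was. That 72 h call was lost without control mouse 1 (adjusted p = 0.13) or 3 (0.11), without 72 h mouse 1 (0.17) or 3 (0.13), with DESeq2 (0.053) and with cycle genes kept in the clustering (0.22). Prim1 stood at 40.5, 29.9, 38.05 and 51.00 CPM in control mice and at 57.6, 47.5, 52.6 and 43.8 CPM at 24 h, which overlapped. Its 24 h log2 fold change was 0.43 (SE 0.12, adjusted p = 0.031), and the call was lost with library size alone (0.054), with DESeq2 (0.069), with thinned cells (0.8), without control mouse 2 (0.22) or 3 (0.1) and without 24 h mouse 1 (0.11), 2 (0.053) or 3 (0.088), all as adjusted p. Rfc2 measured 180.1, 181, 174 and 121 CPM in control mice and 193, 199, 198 and 247 CPM at 3 h, with no call. The 3 h mice of Rfc2 lay above the control mice, among which mouse 4 was far below the others, and without that mouse the log2 fold change was 0.22 and not called (adjusted p = 0.082).

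Rrm1, for which values per mouse were also chosen after they were seen, was the nucleotide supply gene that was called, with 45.7, 33.2, 43.7 and 44.6 CPM in control HSC-like cells, 65.8, 57.5, 72.2 and 55.7 CPM at 3 h and a log2 fold change of 0.63 (SE 0.14, adjusted p = 6.7e-04). Rrm2 measured 20.5, 14.9, 16.9 and 25.5 CPM in control mice and 19.4, 37.8, 26.97 and 22.9 CPM at 3 h, and Tyms 63.1, 45.9, 65.3 and 134 and 57.2, 76.4, 79.6 and 69.7 CPM. Both overlapped between the groups and neither was called at any time, with 3 h log2 fold changes of 0.62 (SE 0.23, adjusted p = 0.054) for Rrm2 and 0.24 (SE 0.19, adjusted p = 0.41) for Tyms. Without control mouse 4, whose Tyms value was the highest, that of Tyms was 0.30 (adjusted p = 0.25). Of the fork protection genes, Clspn, Tipin, Blm, Rad51ap1, Ung and Usp1 were higher at 3 h. Tipin stood at 103, 71.9, 79.6 and 102 CPM in control mice and at 118, 113, 131 and 128 CPM at 3 h, with a log2 fold change of 0.52 (SE 0.11, adjusted p = 4.8e-04) at 3 h and 0.38 (SE 0.10, adjusted p = 0.019) at 24 h. The 24 h call of Tipin was lost without control mouse 2 (adjusted p = 0.18) or 3 (0.16), without 24 h mouse 2 (0.077) or 3 (0.083), and with thinned cells (0.12), which also ended its 3 h call (0.11). Usp1 stood at 83.5, 79.6, 79.98 and 57.4 CPM in control mice and at 118, 104, 126 and 115 CPM at 3 h, with a log2 fold change of 0.54 (SE 0.09, adjusted p = 1.7e-05), not called with thinned cells (adjusted p = 0.2). For Clspn, which activates the checkpoint kinase Chk1, and Ung, which removes uracil from DNA, the log2 fold changes were 0.68 and 0.49. Exo1, Brip1 and Dtl were not called.

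The third question was whether the HSC-like cells changed differently from committed progenitors of the same mice. Since both classes came from the same mice and were read in the same droplet libraries, the difference between their log2 fold changes was tested with the mouse as a block. The test covered 10797 genes. At 3 h the change in HSC-like cells exceeded that in myeloid progenitor-like cells for 20 members and fell short of it for none, where 2.63% and 1.9% of all genes were called in these directions. At 24 h it was 7 and none (0.926% and 2.64%), and at 72 h none in either direction (0.333% and 0.658%). The median difference of the members was 0.47, 0.31 and 0.16 at the 3 times. In the fit of 72 h, leaving out control mouse 1, 3 h mouse 3 or 72 h mouse 3 gave 1 member each, and keeping cycle genes in the clustering gave 6.

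**Figure D3:**
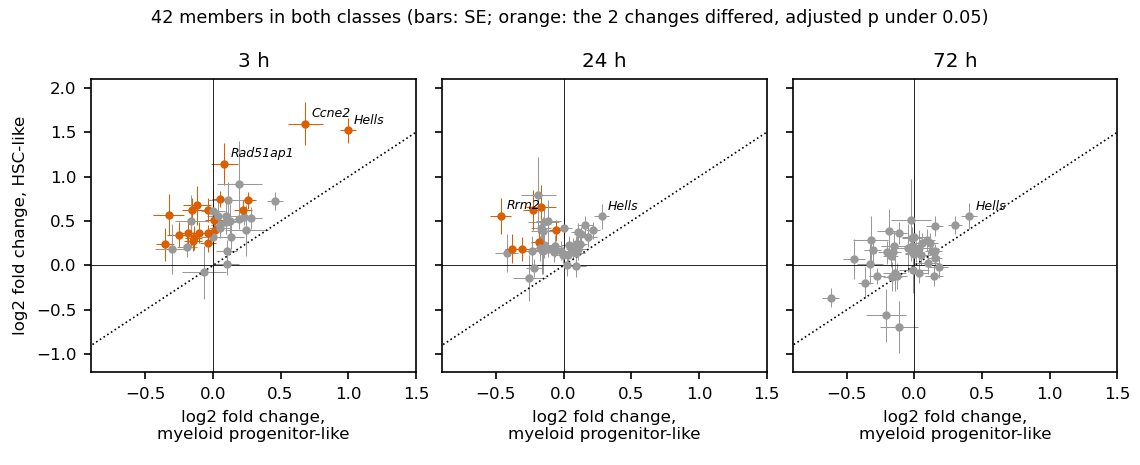
Log2 fold change against control of each member in myeloid progenitor-like cells (x axis) and HSC-like cells (y axis) at 3, 24 and 72 h, with SE as bars and the line of equal change dotted; orange points passed the test of the difference. At 3 h 20 members are orange, and all of them lie above the line.

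Rad51ap1 had the largest difference at 3 h, 1.10 (SE 0.25, adjusted p = 0.0046), with log2 fold changes of 1.15 in HSC-like and 0.08 in myeloid progenitor-like cells. Ccne2 differed by 0.92 (SE 0.26, adjusted p = 0.031), although it was higher in both classes, by 1.60 and 0.68. Hells was likewise higher in both, by 1.52 and 1.00, and differed by 0.54 (SE 0.14, adjusted p = 0.013). Cdc45 went in opposite directions, with 0.57 in HSC-like cells, which was not called, and -0.33 (SE 0.11, adjusted p = 0.028) in myeloid progenitor-like cells, a difference of 0.91 (SE 0.26, adjusted p = 0.029). Tyms and Prim1 had the same pattern, called lower in myeloid progenitor-like cells (-0.36 and -0.25), not called in HSC-like cells, and different between them by 0.59 (SE 0.17, adjusted p = 0.028) and 0.59 (SE 0.16, adjusted p = 0.024). For Mcm6 the difference was 0.71 (SE 0.08, adjusted p = 5.5e-08), and for Clspn and Rrm1 it was 0.83 and 0.79. At 24 h the difference was called for Rrm2 (1.04 (SE 0.18, adjusted p = 1.2e-04)), Ccne2, Rad51ap1, Tyms, Fen1, Gmnn and Rrm1. Rrm2 then stood at 0.56 in HSC-like cells, not called, and at -0.47 (SE 0.08, adjusted p = 2.5e-05) in myeloid progenitor-like cells. The difference of Cdca7 at 3 h was not called, at 0.27 (SE 0.10, adjusted p = 0.1). The 3 h count of 20 was 10 without 3 h mouse 3, 11 without 3 h mouse 2, 12 without control mouse 3 and 3 with thinned cells. The 24 h count of 7 was 4 without control mouse 2, 3 without control mouse 3 or 24 h mouse 3, 11 without 24 h mouse 4, and 0 with thinned cells. Within the myeloid class the makeup also moved, since its first cluster, led by Ms4a6c and Irf8, went from a mean of 37.4% of the class in control to 62.0%, 60.1% and 58.1% at 3, 24 and 72 h, and its last from 27.9% to 9.43%, 11.5% and 11.3%. The part of that shift in the differences, and in the counts of the myeloid class, was not tested.

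In each of the other classes fewer members were called at 3 h than in HSC-like cells under the scaling used here. With library size alone 18 were called in myeloid progenitor-like cells, 3 higher and 15 lower. In HSC-like cells 13 were then called, all higher. The share of all genes called under library size alone is not given here. The median log2 fold change of the members at 3 h was 0.50 in HSC-like cells. It was 0.10 in LMPP-like, 0.04 in myeloid, 0.05 in erythroid and 0.18 in MK progenitor-like cells. In LMPP-like cells 8 members were higher and none lower at 3 h (10.1% and 4.79% of all genes), none was called at 24 h (3.71% and 1.32%) and 3 were higher and 2 lower at 72 h (3.44% and 1.64%). In myeloid progenitor-like cells the counts were 8 and 3 at 3 h (16% and 11.2%), 2 and 8 at 24 h (11.6% and 7.27%) and 3 and 8 at 72 h (10.5% and 7.44%). In erythroid progenitor-like cells they were 3 and 2 (9.38% and 3.83%), 0 and 1 (6.04% and 3.61%), and 1 and 2 (3.38% and 1.66%). In MK progenitor-like cells, where 40 members were tested and Brip1 and Ccne1 did not pass the filter on low counts, they were 4 and 0 (6.38% and 1.45%), 0 and 1 (2.36% and 1.06%), and 0 and 1 (2.62% and 1.51%). Control mouse 4 had too few cells for the LMPP-like, erythroid and MK progenitor-like classes, which rest on 3 control mice. A 3 h mouse gave 13 to 36 erythroid and 15 to 29 MK progenitor-like cells, against 108 to 262 HSC-like cells. Fewer calls in the erythroid and MK progenitor-like classes therefore do not by themselves show a smaller change. With library size alone the split at 3 h became 4 and 1 in LMPP-like, 3 and 15 in myeloid and 2 and 7 in erythroid progenitor-like cells, and at 72 h 1 and 2 in LMPP-like, 2 and 12 in myeloid and 0 and 2 in erythroid progenitor-like cells. The median of all genes at 3 h then lay between -0.22 and -0.17 in these 4 classes. The myeloid 3 h count was 6 without control mouse 3, the LMPP-like 72 h count was 2 without control mouse 3 or 72 h mouse 1 and 3 without 72 h mouse 2 or 4, and the erythroid 3 h count was 3 without 3 h mouse 2 or 4. The erythroid 24 h count was 6 without control mouse 2 and 2 without control mouse 1 or 24 h mouse 1, and the erythroid 72 h count was 6 without control mouse 2 and 1 without control mouse 3. The MK counts were 2 at 3 h without control mouse 1 or 3 h mouse 1, 0 at 24 h without control mouse 2 or 3 or 24 h mouse 2 or 4, and 2 or 3 at 72 h without 3 h mouse 1 or 4 or 72 h mouse 1 or 3.

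Hells was higher at 3 h in each of the 5 classes. In myeloid progenitor-like cells it stood at 98.5, 85.8, 102 and 98.6 CPM in control mice and at 189, 180.1, 188 and 203 CPM at 3 h, with a log2 fold change of 1.00 (SE 0.06, adjusted p = 1.1e-14). In LMPP-like cells it stood at 91.4, 99.8 and 63.6 CPM in 3 control mice and at 152, 162, 142 and 131 CPM at 3 h (0.77 (SE 0.14, adjusted p = 5.9e-05)). The erythroid and MK progenitor-like values rose from 67.4, 47.7 and 57.2 to 132, 92.2, 101 and 117 CPM and from 65.1, 65.7 and 66.4 to 128, 120.4, 124 and 113 CPM, with log2 fold changes of 0.90 (SE 0.14, adjusted p = 1.2e-05) and 0.87 (SE 0.17, adjusted p = 1.3e-04). In none of the 5 classes did a 3 h mouse overlap a control mouse for Hells.

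Pcna was the counterpart at 72 h, lower in each of the 5 classes with no overlap. In myeloid progenitor-like cells it stood at 152, 141, 153 and 127 CPM in control mice and at 92.3, 108, 90.97 and 96.1 CPM at 72 h, with a log2 fold change of -0.62 (SE 0.06, adjusted p = 6.6e-09). In erythroid progenitor-like cells it stood at 225, 169 and 217 CPM and at 118, 113, 117 and 123 CPM (-0.79 (SE 0.11, adjusted p = 3.5e-06)). The LMPP-like value was 182, 165 and 171 CPM in control mice and 116, 117, 123 and 105 CPM at 72 h (-0.58 (SE 0.08, adjusted p = 5.2e-06)), and the MK value was 114, 183 and 153 and 92.7, 112, 106 and 105 CPM (-0.56 (SE 0.14, adjusted p = 0.0076)). The HSC-like value of -0.36 was the smallest of the 5 in size.

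Mcm7 followed Pcna at 72 h in LMPP-like (-0.29 (SE 0.09, adjusted p = 0.038)), myeloid (-0.28 (SE 0.06, adjusted p = 8.3e-04)) and erythroid progenitor-like cells (-0.41 (SE 0.09, adjusted p = 0.0061)). In MK progenitor-like cells (-0.21 (SE 0.14, adjusted p = 0.49)) and HSC-like cells (-0.12 (SE 0.09, adjusted p = 0.56)) it was not called. Ccne1 in erythroid progenitor-like cells stood at 143, 78.8 and 127 CPM in 3 control mice, at 111, 41.2, 74.8 and 36.7 CPM at 3 h and at 62.9, 64.9, 81.8 and 60.9 CPM at 24 h. Its log2 fold change there was -0.87 (SE 0.22, adjusted p = 0.0062) at 3 h and -0.79 (SE 0.17, adjusted p = 0.0021) at 24 h, and the lowest control mouse, at 78.8 CPM, was overlapped at both times. In that class Rrm2 was also lower at 3 h, by -0.66 (SE 0.23, adjusted p = 0.05). Mcm2, Rfc2, Exo1, Brip1, Dtl and E2f8 were called at no time in the whole compartment or in any of the 5 classes.

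A sum over cells does not say how the UMIs were spread over cells. Each cell was therefore thinned to 3000 UMIs, and the cells with at least 10 UMIs of the 42 members were counted, with no test. Among control HSC-like cells 19.05% to 28.6% passed per mouse (mean 23.2 ± 3.97%, SD, n = 4), against 32.7% to 37.96% at 3 h (35.1 ± 2.21%), 23.6% to 35.3% at 24 h and 20.7% to 31.4% at 72 h. The 3 h mice lay above all control mice, and the 24 h and 72 h mice overlapped them. With a threshold of 5 UMIs the control and 3 h ranges were 46.3% to 52.4% and 47.3% to 64.8%, which overlapped, and with 20 UMIs they were 0% to 5.95% and 2.80% to 7.53%, which also overlapped. The 0% was that of control mouse 4. Pooled over mice, the share of HSC-like cells with 20 or more member UMIs was 4.91% in control and 6.49% at 3 h, and that with 10 to 19 was 16.8% and 28.6%. The share with 5 to 9 was 27.5% and 18.7%, that with 1 to 4 was 48.7% and 42.05%, and that with none was 2.08% and 4.22%. In control mice 51.6% to 55.2% of LMPP-like, 55.6% to 68.3% of myeloid, 61.9% to 71.4% of erythroid and 40.4% to 46.2% of MK progenitor-like cells passed 10 UMIs. Each of these ranges lay above that of control HSC-like cells. In myeloid progenitor-like cells 48.4% to 70.5% passed at 3 h, which overlapped control. In erythroid progenitor-like cells 53.8% to 61.1% passed at 72 h, below the control range. Thinning left out the cells with fewer UMIs, which were 6 of the control cells and 15, 5 and 16 of those at 3, 24 and 72 h.

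**Figure D4:**
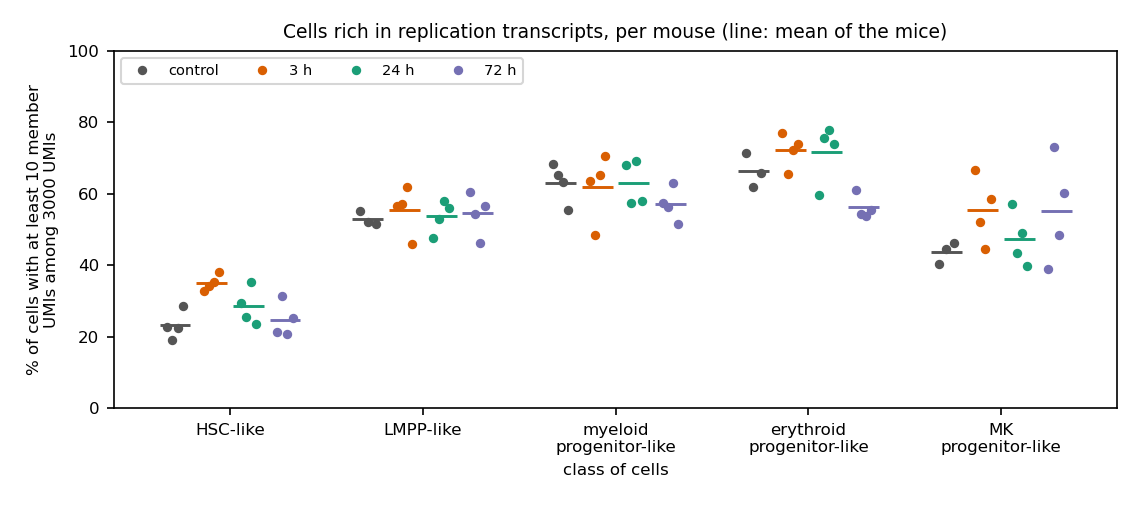
Share of cells (y axis, percent) with at least 10 UMIs of the 42 members after thinning each cell to 3000 UMIs, per mouse (points, colored by group) in each class (x axis), with the group mean as a line. In HSC-like cells the 3 h mice sit between 32.7% and 37.96%, above the control mice at 19.05% to 28.6%.

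Other replication genes, many of them partners of the members, were counted in the same fits. Of 58 listed genes, 12 were higher and 13 lower at 3 h in the whole compartment, shares close to the 19.7% and 19.2% of all genes. At 24 h 2 were higher and 9 lower (14.5% and 13.8% of all genes), and at 72 h 3 and 26 (18.9% and 18.5%). In HSC-like cells, where 57 were tested, 25 were higher and 1 was lower at 3 h (13% and 7.71% of all genes). At 24 h 3 were higher and 0 lower (3.6% and 1.5%), and at 72 h 2 and 1 (3.63% and 1.77%). Dck, which salvages deoxynucleosides, measured 11.7 to 25.5 CPM in control and 26.96 to 37.4 CPM in 3 h HSC-like cells, without overlap, with a log2 fold change of 1.23 (SE 0.18, adjusted p = 2.8e-06). Rfc3, a clamp loader subunit like Rfc2, measured 45.9 to 57.4 and 101 to 123 CPM, with 1.14 (SE 0.11, adjusted p = 6.4e-10), and its value in the whole compartment was 0.71 (SE 0.06, adjusted p = 5.0e-10). At 24 h Chaf1a, the large subunit of chromatin assembly factor 1, Rfc1 and Pole3 were the 3 called higher in HSC-like cells, by 0.52, 0.44 and 0.37. In the whole compartment at 72 h, Tk1, the thymidine kinase, was lower by -0.44 (SE 0.09, adjusted p = 4.9e-04).

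**Figure D5:**
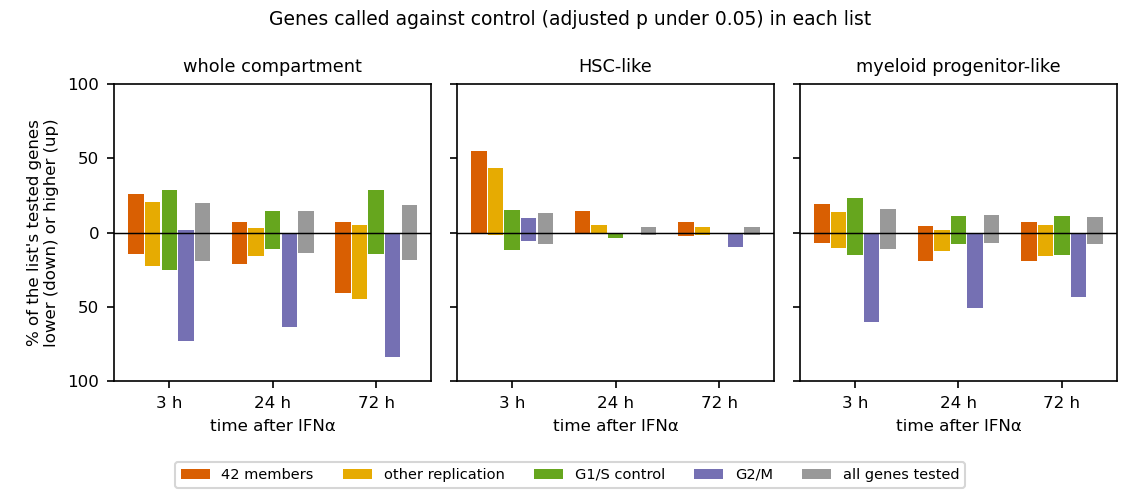
Share (y axis, percent) of the tested genes of each list that were called higher (bars up) or lower (bars down) at 3, 24 and 72 h (x axis), for the 42 members, 58 other replication genes, 28 G1/S control genes, 55 G2/M genes and all genes tested, in 3 panels by class. In HSC-like cells at 3 h the bars of the members and of the other replication genes stand for 23 and 25 genes higher, and in the whole compartment that of the G2/M genes for 40 lower.

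Genes of G2 and M phase, which follow S phase, were mostly lower in the whole compartment. Of 55 tested, 1 was higher and 40 lower at 3 h (19.7% and 19.2% of all genes). At 24 h none was higher and 35 were lower (14.5% and 13.8%), and at 72 h none and 46 (18.9% and 18.5%). Plk1, the mitotic kinase, was lower by -1.03 (SE 0.10, adjusted p = 2.5e-08) at 3 h, from 21.5 to 25.6 CPM to 10.1 to 13.5 CPM, and Ube2c, which drives the degradation of cyclin B, by -1.08 (SE 0.10, adjusted p = 2.9e-08) at 72 h. In HSC-like cells, where 51 were tested, 5 were higher and 3 lower at 3 h (13% and 7.71% of all genes). There none was called at 24 h (3.6% and 1.5%), and at 72 h none was higher and 5 were lower (3.63% and 1.77%). Cenpf, a centromere protein of late G2, was lower there at 72 h by -1.21 (SE 0.27, adjusted p = 0.0037), and Birc5, of the chromosomal passenger complex, by -0.78 (SE 0.23, adjusted p = 0.044). In myeloid progenitor-like cells 33, 28 and 24 of 55 were lower at the 3 times and none was higher. Of all genes 11.2%, 7.27% and 7.44% were lower there and 16%, 11.6% and 10.5% higher.

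Of the 28 genes that control entry into S phase, 8 were higher and 7 lower at 3 h in the whole compartment (19.7% and 19.2% of all genes). At 24 h 4 were higher and 3 lower (14.5% and 13.8%), and at 72 h 8 and 4 (18.9% and 18.5%). Ccnd2, a D-type cyclin, rose from 133 to 148 CPM in control mice to 384 to 440.2 CPM at 3 h, with a log2 fold change of 1.58 (SE 0.05, adjusted p = 2.8e-17). In HSC-like cells it was 228 to 274 CPM in control and 568 to 668 CPM at 3 h, with 1.30 (SE 0.07, adjusted p = 5.8e-17). Cdkn1a, which inhibits cyclin-dependent kinases, was higher at the same time, by 1.32 (SE 0.32, adjusted p = 0.0025) in HSC-like cells, from 0 to 9.51 CPM to 9.45 to 25.2 CPM. Ccnd1, another D-type cyclin, was lower there, by -0.88 (SE 0.22, adjusted p = 0.004), with overlapping ranges of 31.9 to 43.7 and 16.96 to 34.5 CPM. In HSC-like cells 4 of 26 tested were higher and 3 lower at 3 h (13% and 7.71% of all genes). At 24 h none was higher and 1 lower (3.6% and 1.5%), and none was called at 72 h (3.63% and 1.77%). The 10 interferon-stimulated genes used as a check of the treatment were all higher at 3 h and at 24 h in the whole compartment and in HSC-like cells. Of all genes 19.7% and 14.5% were higher at these times in the whole compartment, and 13% and 3.6% in HSC-like cells. At 72 h none was higher in either, while 2 were lower in the whole compartment and 6 in HSC-like cells (18.5% and 1.77% of all genes). Their median log2 fold change in HSC-like cells was then -0.86. Control mouse 4, with 1118 CPM of these genes in HSC-like cells against 263 to 360 CPM in the other control mice, was part of that comparison. The 72 h mice had 162 to 229 CPM, below every control mouse.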

How the data were processed

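Single-cell RNA was measured with the 10x Genomics 3′ kit (v3.1) in 4 libraries, each holding 4 mice under hashtag antibodies. The files deposited hold unnormalized counts of UMIs for each barcode, made with Cell Ranger 3.1.0 on mm10 per the submitters' processing notes, and the hashtag call of each barcode made with Seurat; the gene annotation behind the counts is not given in the sources used here. A margin score between hashtags and total hashtag counts were also deposited by the authors and were not used. A UMI is an RNA molecule counted once, so depth limits precision as counting error.

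Barcodes were kept if they had a single hashtag, 700 or more genes detected and no more than 5% of UMIs from mitochondrial genes. Hashtag multiplets (103, 67, 169 and 113 in control, 3 h, 24 h and 72 h) and negatives (166, 422, 190 and 181) were removed, while doublets within a mouse remain. Control cells were clustered in scanpy 1.11.5 (Python 3.11.15) from 500 variable genes without cell cycle and histone genes (Leiden resolution 0.8), clusters were named from marker lists, and labels were transferred to the other libraries after mutual nearest neighbor correction. Unnamed, basophil, mast cell and eosinophil clusters entered only the whole compartment. A mouse needed at least 10 cells in a class.

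UMIs were summed per mouse and class and fitted over the 16 mice in edgeR 4.0.16 (limma 3.58.1, R 4.3.3): low counts were filtered by filterByExpr, libraries scaled by TMM, and quasi-likelihood p-values adjusted by Benjamini-Hochberg over all genes tested. The difference between HSC-like and myeloid progenitor-like cells was an interaction term with the mouse as a block. SE is that of the log2 fold change. Counts were simulated with mean levels over the 16 mice, the depth of each mouse and 1 spread between mice shared by all genes. In the simulated 24 h comparison, 86.6%, 96.9% and 100% of genes changed by 1.5-fold, 2-fold and 4-fold were recovered in the whole compartment (11973 genes), and 52.2%, 83.6% and 98.5% in HSC-like cells (10244 genes). The changed genes were drawn from all genes that passed the filter, so the rates were not measured on the members.

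Values per mouse are given for the 2 members of each role with the highest mean CPM in the whole compartment, and for the 3 called members with the largest log2 fold change at each time in the whole compartment and in HSC-like cells; genes of other lists are named among the 3 called with the largest change. The members, roles and lists were chosen with earlier results of these data known. Alternatives were RLE factors, library size alone, no filter on low counts, DESeq2 1.42.0, a likelihood ratio test on control and 1 time point, the hashtag number as a block, each cell thinned to 3000 UMIs, cycle genes kept in the clustering, no correction before the transfer, and leaving out each mouse. Fits on single clusters were added after the data were seen. Promoter windows came from RefSeq (GRCm38.p6) and gene positions from GENCODE vM21.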

Additional observations from a re-analysis of the deposited data

Results flagged for a closer look

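In 144 groups of 4 mice (18 members with values per mouse, the whole compartment and HSC-like cells, 4 groups), 12 had 1 mouse set apart from the other 3 by Dixon's criterion, which chance gives in about 1 group in 20. Of these, 4 were values of control mouse 4, the mouse with 58 kept cells: Rad51ap1 in the whole compartment (30.5 CPM), and Rfc2 (121 CPM), Usp1 (57.4 CPM) and Cdc45 (25.5 CPM) in HSC-like cells. In the whole compartment the others were Mcm3 in control mouse 1 (190.8 CPM) and in 3 h mouse 4 (201 CPM), Rfc2 in 3 h mouse 4 (231 CPM), Ccne2 in 3 h mouse 3 (31.7 CPM), Rad51ap1 in 3 h mouse 2 (42.3 CPM) and Nasp in 3 h mouse 2 (130.2 CPM). In HSC-like cells they were Rfc2 in 3 h mouse 4 (247 CPM) and Nasp in 24 h mouse 3 (101 CPM).

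The change at 3 h differed between HSC-like and myeloid progenitor-like cells for 20 members, always with the larger value in HSC-like cells. As differences in log2 fold change these were, among the helicase and licensing genes, Mcm3 0.38, Mcm4 0.50, Mcm5 0.47, Mcm6 0.71, Mcm7 0.48, Cdc45 0.91 and Gmnn 0.68. The synthesis and clamp genes among them were Prim1 0.59, Pcna 0.43, Rfc2 0.28, Rpa2 0.46 and Fen1 0.55. For nucleotide supply they were Rrm1 0.79 and Tyms 0.59, and for the fork Clspn 0.83 and Rad51ap1 1.10. The chromatin genes were Hells 0.54, Nasp 0.42 and Slbp 0.39, and the G1/S gene was Ccne2 0.92. At 24 h the difference was called for 7 members, Gmnn 0.46, Fen1 0.49, Rrm1 0.46, Rrm2 1.04, Tyms 0.57, Rad51ap1 0.85 and Ccne2 0.86.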

How the results depend on the processing

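Counts of members called are given for each setting that moved them by more than 1.5 times. The share of all genes called under these settings is not given here, and the counts stand without it. With library size alone they were, at 3 h, 26 in the whole compartment, 13 in HSC-like, 5 in LMPP-like, 18 in myeloid, 9 in erythroid and 2 in MK progenitor-like cells, and for LMPP-like cells 1 at 24 h and 3 at 72 h, and Mcm3 (-0.13) and Rfc2 (-0.12) turned to lower in the whole compartment at 3 h. With cells thinned to 3000 UMIs, which leaves fewer counts, they were 11, 2 and 7 at 3, 24 and 72 h in the whole compartment, 7 for 24 h against 3 h, 9, 0 and 1 in HSC-like cells, 2 at 3 h and 0 at 72 h in LMPP-like cells, 3, 3 and 5 in myeloid, 0, 0 and 1 in erythroid, and 1 at 3 h and 0 at 24 h in MK progenitor-like cells, and the difference between HSC-like and myeloid progenitor-like cells was called for 3 members at 3 h and 0 at 24 h. Without the filter on low counts they were 5 for 72 h against 24 h in the whole compartment, 12 at 24 h in HSC-like cells, 3 and 5 at 24 h and 72 h in erythroid and 3 at 72 h in MK progenitor-like cells, and 13 and 5 for the difference at 24 h and 72 h. RLE factors gave 4 for 72 h against 24 h, and DESeq2 gave 0 at 24 h in MK progenitor-like cells. The likelihood ratio test gave 2 at 24 h in erythroid and 3 at 72 h in MK progenitor-like cells. Cycle genes kept in the clustering gave 1 at 72 h in LMPP-like, 2 at 24 h in erythroid and 0 at 24 h in MK progenitor-like cells, 6 for the difference at 72 h, and 28, 8 and 5 in HSC-like cells. No correction before the transfer gave 1 at 24 h in LMPP-like cells and 0 and 3 at 24 h and 72 h in MK progenitor-like cells. On single clusters, chosen after seeing the data, the larger HSC-like cluster of the pair in control gave 1 at 24 h and the other 7, 0 and 1 at the 3 times; the second myeloid cluster gave 4 at 3 h and the third 1, 2 and 2. The cause of these moves was not tested where the setting itself does not remove counts or cells.

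The hashtag number was not used to pair mice. Deviations from the group means of mice with the same number correlated by -0.058 to 0.095 (median 0.010, 24 pairs). For mice with different numbers they correlated by -0.118 to 0.141 (median -0.007, 72 pairs). Correlations over all genes tested cannot exclude that mice of the same number shared a handling step. With the hashtag number as a replicate block the counts were 3 at 72 h in LMPP-like and 2 at 24 h in erythroid progenitor-like cells. In MK progenitor-like cells the count was 2 at 72 h, and the other 17 counts stayed within 1.5 times.

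Leaving out each mouse in turn gave 13 to 19, 9 to 13 and 14 to 21 at 3, 24 and 72 h in the whole compartment, 10 to 14 for 24 h against 3 h and 2 to 4 for 72 h against 24 h, 17 to 27, 1 to 7 and 3 to 4 in HSC-like, 6 to 10, 0 to 0 and 2 to 6 in LMPP-like, 6 to 15, 8 to 11 and 9 to 12 in myeloid, 3 to 6, 1 to 6 and 1 to 6 in erythroid and 2 to 5, 0 to 1 and 1 to 3 in MK progenitor-like cells, and 10 to 22, 3 to 11 and 0 to 1 for the difference between HSC-like and myeloid progenitor-like cells. Of 359 such counts 35 moved by more than 1.5 times.

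Time point and library coincide, so no result separates them. Class names were rebuilt here, and 1 control mouse rests on 58 cells. In HSC-like cells the simulated 24 h comparison recovered 52.2% of 1.5-fold changes, so a member without a call there was not shown to be unchanged.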
